A study of Mus musculus with 2 samples.

Results

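Keratins and the epithelial surface genes that accompany them were measured in total RNA of mouse embryonic hindbrain. The 10 genes, taken by name from 43346 annotated genes, were Krt8, Krt18, Krt19, Krt5, Krt14, Krt15, Krt17, Epcam, Cdh1 and Trp63. The samples were 2 pools of hindbrain from B6NCrl embryos of both sexes at 10.5 days, pool 1 (labelled replicate 1) of 69 embryos and pool 2 (labelled replicate 2) of 51, and 10 ng of RNA longer than 200 nucleotides entered each library together with spike-in RNAs. No genotype, treatment or second tissue was present, so there was no comparison between conditions, no test and no p-value. The pools carry 1 shared donor ID in the labels, and an SD given here describes these 2 pools alone.

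Keratins are the intermediate filament proteins of epithelia, and each filament is assembled from a type I and a type II partner. Simple epithelia and the early surface ectoderm make the pair of Krt8 (type II) and Krt18 (type I), often with Krt19, whereas the basal layer of stratified epidermis makes Krt5 (type II) and Krt14 (type I) under the control of Trp63. Neuroepithelium holds its cells together with Cdh2 (N-cadherin), and surface ectoderm with Cdh1 (E-cadherin).

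Expected counts in annotated genes summed to 38170090 in pool 1 and 36382245 in pool 2. Levels are given in TPM, an abundance per transcript length that sums to 1 fixed total per library, so they can be compared between genes. That total includes the spike-ins, which held 13.0% of TPM in pool 1 and 7.82% in pool 2. TPM of genes in pool 1 are thereby lowered more than those in pool 2. A single count in a transcript of 1 kb was worth 0.037 TPM in pool 1 and 0.0413 TPM in pool 2. Ratios between the pools are log2 ratios of pool 1 over pool 2 of CPM (counts scaled to library size) after TMM scaling, with a prior count of 2, and their 95% intervals cover counting error only. Scaling to the spike-ins instead shifted the median log2 ratio of all tested genes by -0.80, so each ratio is relative to the bulk of genes, and under that scaling the ratios of Krt19 and Krt14 were negative (-0.63 and -0.50). For the labelled tissue, 3 genes made in the hindbrain were read, Irx2, Irx3 and Gbx2. These were at 40.69, 37.87 and 33.07 TPM in pool 1 and at 32.52, 33.62 and 23.05 TPM in pool 2. No gene of another brain region was set beside them, so these levels give no verdict on the tissue.

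With detection set at 1 TPM or more in both pools, 7 of the 10 genes were detected, beside 33% of all annotated genes and 58.8% of protein-coding genes. The exceptions were Krt5, Krt15 and Krt17. The simple epithelial keratins Krt8 and Krt18 led the levels, and the basal keratins stood at the bottom. In bulk RNA a low level from fewer cells of a type and one from less RNA per cell cannot be told apart.

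**Figure D1:**
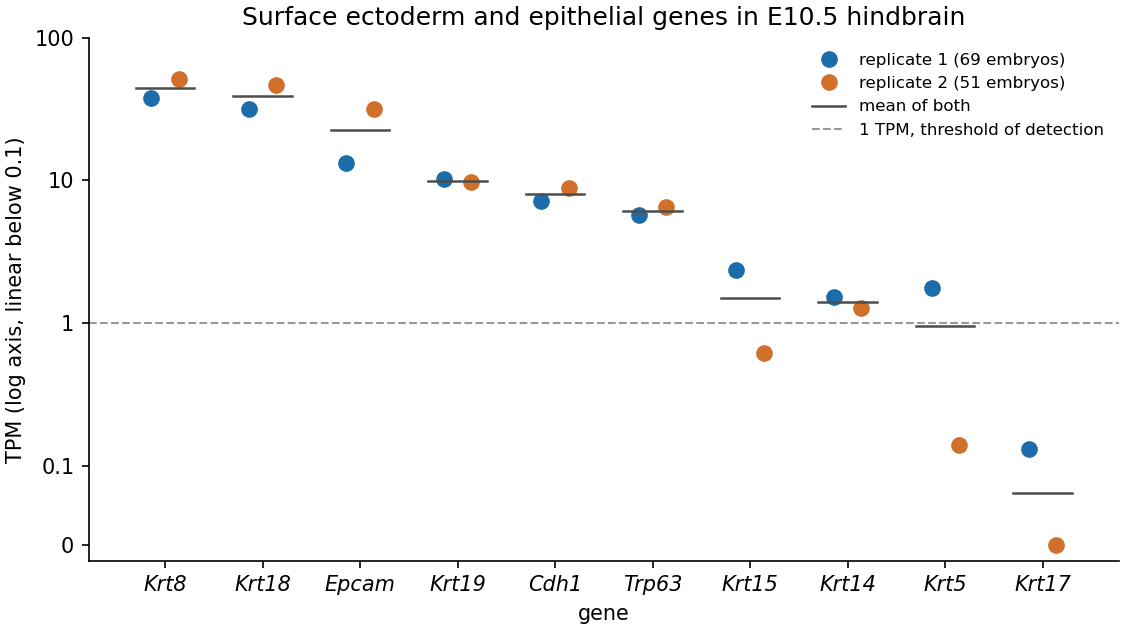
Levels of the 10 genes in TPM on a log axis that is linear below 0.1, with the mean as a bar and a point for each pool (pool 1 of 69 embryos and pool 2 of 51 embryos) and a dashed line at the detection threshold of 1 TPM. Krt8, Krt18 and Epcam lie highest, Krt17 is at 0.13 TPM in pool 1 and has no count in pool 2, and Krt5 is the gene whose points lie farthest apart among the genes with counts in both pools.

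Krt8, the type II keratin of simple epithelia (chr15:101996698-102004482, minus strand, mm10), was at 37.54 TPM in pool 1 and 51.05 TPM in pool 2. It averaged 44.3 ± 9.55 TPM (SD, n = 2), from 1731 and 2111 expected counts. Its type I partner Krt18 (chr15:102028180-102032027, plus strand) was at 31.65 TPM in pool 1 and 46.33 TPM in pool 2, or 39.0 ± 10.4 TPM (SD, n = 2). Both were lower in pool 1, and the range of one gene over the pools overlapped that of the other. Krt8 exceeded 71.4% of the detected protein-coding genes, whose median was 19.1 TPM in pool 1 and 20.0 TPM in pool 2, and Krt18 exceeded 68.3%. The log2 ratio was -0.38 for Krt8 (95% interval -0.47 to -0.29) and -0.48 for Krt18 (95% interval -0.60 to -0.37). The intervals lie below 0, and both ratios fall inside the central 90% of all tested genes, -0.55 to 0.83.

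The Krt8 and Krt18 genes lie 23697 bases apart, on opposite strands, although one is type II and the other type I. Of the 10 genes, 5 had a promoter window in the RefSeq table (GRCm38.p6). Each window holds the 250 bases before the RefSeq start, which is not always the start in GENCODE M21. The Krt8 window has 140 of its bases inside the GENCODE gene and is not shown. The Krt18 window has 36 bases inside the gene, and the other 214 are shown as the start region of the most abundant type I keratin. Capitals mark matches to CACCTG or its reverse complement CAGGTG, the E-box bound by the Snai and Zeb repressors of epithelial genes, and a match to GCCNNNGGC, the core bound by AP-2 factors.
Krt18 (chr15:102027966-102028179, plus strand): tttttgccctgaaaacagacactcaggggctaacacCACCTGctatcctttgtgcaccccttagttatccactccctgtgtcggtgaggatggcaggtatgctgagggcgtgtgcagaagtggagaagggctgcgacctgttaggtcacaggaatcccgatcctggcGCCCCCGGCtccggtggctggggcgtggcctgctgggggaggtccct
The E-box match begins 178 bases before the GENCODE start of Krt18 and the AP-2 core match 47 bases before it. The E-box match of the Krt8 window begins 29 bases inside the GENCODE gene. Across 32851 windows of 250 bases, 17.2% held the E-box letters and 13.7% the AP-2 core on either strand. Searched in the same way, TATAAA was in 12.4% of windows and GGGCGG, the GC box, in 32.7%, and neither was in the Krt8 or Krt18 window. A match of letters describes the sequence and shows no binding.

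Krt19, a type I keratin of simple epithelia with a very short tail (chr11:100140810-100148665, minus strand), was at 10.2 TPM in pool 1 and 9.68 TPM in pool 2. It averaged 9.94 ± 0.368 TPM (SD, n = 2), and its log2 ratio of 0.17 had a 95% interval that includes 0 (-0.07 to 0.41). The protein-coding transcript Krt19-201 held 6.11 TPM in pool 1 and 5.49 TPM in pool 2, and with them 75.3% of the gene's counts in pool 1 and 72.8% in pool 2. The rest, 4.08 TPM in pool 1 and 4.19 TPM in pool 2, was assigned to the noncoding Krt19-203.

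Krt5, the type II keratin of basal epidermal cells (chr15:101707070-101712898, minus strand), was at 1.77 TPM in pool 1 and 0.14 TPM in pool 2. These levels rest on 99.94 expected counts in pool 1 and 7 in pool 2. The log2 ratio was 3.42 (95% interval 2.65 to 5.10), a 10.7-fold higher level in pool 1. Krt15, a type I keratin of basal cells (chr11:100131758-100135928, minus strand), was at 2.36 TPM in pool 1 and 0.62 TPM in pool 2. Its 102 and 24 counts gave a log2 ratio of 1.91 (95% interval 1.34 to 2.70), or 3.76-fold higher in pool 1. Both genes were thus above 1 TPM in pool 1 and below it in pool 2.

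Krt14, the type I partner of Krt5 (chr11:100203162-100207548, minus strand), had a ratio whose interval lies below those of Krt5 and Krt15. It was at 1.53 TPM in pool 1 and 1.27 TPM in pool 2, from 44 and 34 counts, with a log2 ratio of 0.27 (95% interval -0.40 to 0.97). Krt17, a type I keratin of skin appendages and activated epidermis (chr11:100256217-100261029, minus strand), had 5 counts in pool 1 and 0 in pool 2. The 5 counts are 1.56-fold a floor of 3 counts set for pool 2, and the 95% counting interval of the log2 ratio runs from -0.22 with no upper bound, so it includes 0 and no difference can be read from it. Krt5, Krt14 and Krt15 have summed counts between 50 and 200. Of these 3 genes, 2 were at least 2-fold higher in pool 1, where 11.2% of the 2811 genes with such counts were, and 0 were at least 2-fold higher in pool 2, where 5.55% were. Of those 2811 genes, 0.427% had a ratio above that of Krt5 and 2.28% one above that of Krt15.

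The Krt5 window carries 1 E-box match, which begins 128 bases before the RefSeq start and 135 before the GENCODE start, and is shown for comparison with Krt18.
Krt5 (chr15:101712906-101713155, minus strand): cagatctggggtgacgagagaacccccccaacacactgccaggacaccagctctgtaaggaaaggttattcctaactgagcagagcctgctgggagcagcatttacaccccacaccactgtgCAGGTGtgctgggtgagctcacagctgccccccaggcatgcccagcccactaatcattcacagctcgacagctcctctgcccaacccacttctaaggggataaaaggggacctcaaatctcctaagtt
It holds no match to the letters TATAAA, to the GC box letters or to the AP-2 core letters. Only exact letters were searched, so the similar letters ATAAAA near the end of the window did not count.

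Most of the Krt14 level was assigned to a noncoding transcript, by an estimate that rests on 44 counts in pool 1 and 34 in pool 2. Krt14-202, annotated as a processed transcript, held 1.43 TPM in pool 1 and 1.09 TPM in pool 2, or 93.5% and 85.8% of the gene. The protein-coding Krt14-201 held 0.1 TPM from 4.42 estimated counts in pool 1 and 0.18 TPM from 6.9 in pool 2. Both transcripts share 7 exons and 1062 bases, and they differ in the first exon, of 636 bases in Krt14-201 (37.5% of its length) and 60 bases in Krt14-202. The first exon of Krt14-202 lies in the first intron of Krt14-201, so the split rests on reads in these first exons. Reads in the first exon of Krt14-202 can therefore come from unspliced Krt14-201 RNA as well, and which was not tested. The 2 junctions with the shared exon are shown because the split turns on them (GENCODE M21, minus strand), with the first exon in capitals, whole for Krt14-202 and its last 60 bases for Krt14-201.
Krt14-201 (chr11:100206913-100206972): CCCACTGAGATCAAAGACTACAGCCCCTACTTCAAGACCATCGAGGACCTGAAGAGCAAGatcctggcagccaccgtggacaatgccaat
Krt14-202 (chr11:100205971-100206030): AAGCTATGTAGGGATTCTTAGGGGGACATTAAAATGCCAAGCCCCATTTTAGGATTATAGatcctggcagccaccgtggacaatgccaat
Krt14 and Krt17 are 91% identical over 756 aligned bases, so reads of that stretch can be divided between them by the estimation. With protein-coding transcripts alone, Krt14 was below 1 TPM in both pools and 6 of the 10 genes were detected. This count was added after the values were seen.

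Across the 53 annotated keratin genes, 28 of type I and 25 of type II, 6 were detected in both pools and 24 had no count in either. The detected type I genes were Krt18, Krt19, Krt10 and Krt14, and the type II genes were Krt8 and Krt7. Krt7, a type II keratin of simple and glandular epithelia, was at 15.48 TPM in pool 1 and 14.36 TPM in pool 2. Krt10, the type I keratin of suprabasal epidermis, was at 7.23 TPM in pool 1 and 6.68 TPM in pool 2. Its type II partner Krt1 had 66 and 26 counts (log2 ratio 1.19).

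Since filaments need both types, their summed levels were compared. Over the 7 keratins among the 10 genes, type II summed to 39.31 TPM and type I to 45.87 TPM in pool 1, a ratio of 0.857. In pool 2 the sums were 51.19 and 57.9 TPM, a ratio of 0.884. With all 53 keratins the ratio was 1.01 in each pool, from 56.61 over 55.95 TPM in pool 1 and 66.36 over 65.64 TPM in pool 2. Krt8 over Krt18 alone was 1.19 in pool 1 and 1.10 in pool 2. Krt5 over the sum of Krt14 and Krt15 was 0.455 in pool 1 and 0.0741 in pool 2. Krt8 and Krt18 together made up 61.5% of all keratin TPM in pool 1 and 73.8% in pool 2.

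**Figure D2:**
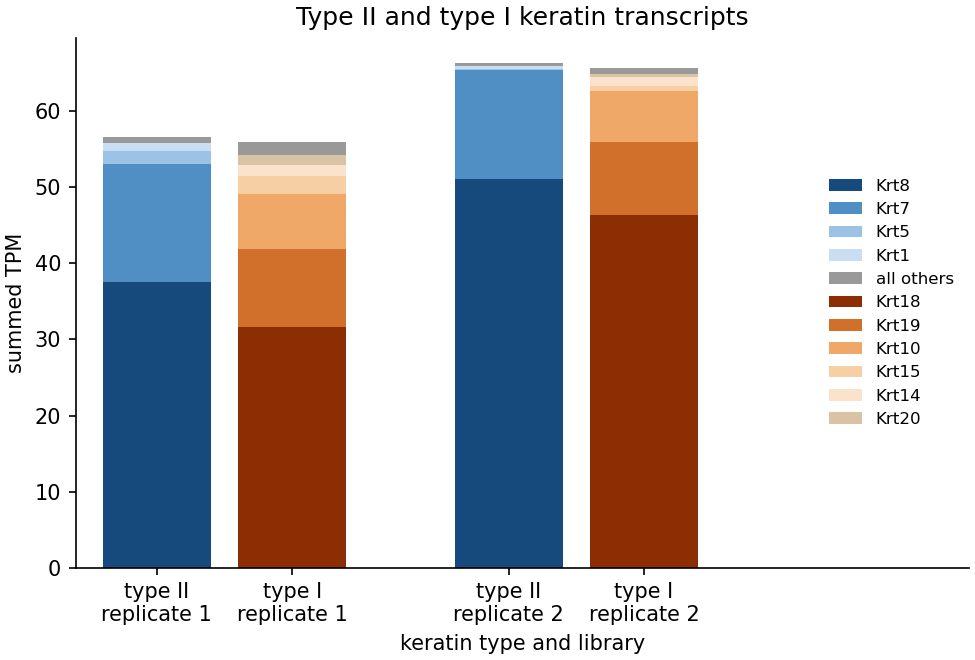
Summed TPM of type II and type I keratins in each pool, with bars divided by gene. Type II sums to 56.61 and type I to 55.95 TPM in pool 1, and to 66.36 and 65.64 TPM in pool 2, and Krt8 and Krt18 are the tallest segments.

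Epcam, a homophilic adhesion molecule of epithelia that also binds claudins (chr17:87635979-87651129, plus strand), differed most between the pools among the 6 genes with a CPM of at least 1 in both. It was at 13.17 TPM in pool 1 and 31.67 TPM in pool 2, from 691 and 1490 counts. The log2 ratio was -1.20 (95% interval -1.33 to -1.07), or 2.29-fold higher in pool 2. Of those 6 genes (Krt8, Krt18, Krt19, Epcam, Cdh1 and Trp63), Epcam was the 1 at least 2-fold higher in pool 2, beside 0.862% of the 14385 tested genes. In pool 1, 0 of the 6 were at least 2-fold higher, beside 3.48%. With spike-in scaling 0.507% of the 14385 genes were at least 2-fold higher in pool 1 and 26% in pool 2. Under other limits on low values the background shares, pool 1 before pool 2, were 2.37% and 0.596% of 10913 genes averaging 5 TPM or more, and 7.22% and 6.03% of 24572 genes with any count. A ratio below that of Epcam was found for 0.466% of tested genes.
Epcam (chr17:87635729-87635978, plus strand): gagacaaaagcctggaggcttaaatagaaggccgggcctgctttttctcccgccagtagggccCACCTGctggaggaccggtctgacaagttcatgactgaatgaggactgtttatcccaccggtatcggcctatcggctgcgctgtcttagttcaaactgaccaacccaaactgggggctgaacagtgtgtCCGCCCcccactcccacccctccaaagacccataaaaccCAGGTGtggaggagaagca
The Epcam window is shown because Epcam had the largest absolute ratio among the 6 genes with a CPM of at least 1 in both. It has E-box matches 187 and 19 bases before the start. A match to GGGCGG, read on the opposite strand, begins 58 bases before the start, and all 3 matches are in capitals. The Epcam start is the same in RefSeq and GENCODE. The E-box letters were in 4 of the 5 windows, beside 17.2% of all windows, with the Krt8 match inside the GENCODE gene and 5 of the 10 genes without a window. The Krt14 window was the one without them. That window lies before the start of Krt14-202, not of Krt14-201.

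Cdh1, the cadherin of epithelial adherens junctions (chr8:106603351-106670246, plus strand), was at 7.18 TPM in pool 1 and 8.82 TPM in pool 2. It averaged 8.00 ± 1.16 TPM (SD, n = 2), with a log2 ratio of -0.21 (95% interval -0.34 to -0.07). The neural cadherin Cdh2 was at 125.67 TPM in pool 1 and 124.24 TPM in pool 2. Repressors of Cdh1 were present too, with Zeb2 at 35.29 TPM in pool 1 and 44.01 TPM in pool 2. Of the 8 genes in the list of Cdh1 repressors and mesenchymal or neural genes, all 8 were detected and 0 were at least 2-fold apart.

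Trp63, the transcription factor p63 that stratified epithelia depend on (chr16:25683763-25892102, plus strand), was at 5.7 TPM in pool 1 and 6.48 TPM in pool 2. It averaged 6.09 ± 0.552 TPM (SD, n = 2) from 524 and 560 counts, with a log2 ratio of -0.19 (95% interval -0.36 to -0.01). The gene has an upstream start for the TA forms, which carry a transactivation domain, and an internal start 118153 bases away for the delta N forms, which lack it and are the forms of basal epidermis. Transcripts from the internal start held 4.77 TPM in pool 1 and 5.57 TPM in pool 2, which is 83.7% and 86.0% of the gene. Transcripts from the upstream start held 0.93 TPM in pool 1 and 0.91 TPM in pool 2, all assigned to Trp63-206. The 3 other TA transcripts, Trp63-202, Trp63-207 and Trp63-208, were listed at 0. Trp63-206 has 4 exons and 676 bases beyond the exon it shares with the delta N forms, in what is intron for the other transcripts. Its counts can therefore come from those bases as well as from the TA exons, and which was not tested.

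The 2 forms part before a shared exon, and the coding bases next to it are shown because they tell the starts apart (GENCODE M21, plus strand). Capitals mark the 42 coding bases found only in the delta N exon and the last 60 of the 324 coding bases found only in the TA exons.
Trp63-201, delta N (chr16:25802060-25802101): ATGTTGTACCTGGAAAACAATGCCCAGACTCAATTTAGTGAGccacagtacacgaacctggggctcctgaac
Trp63-206, TA (chr16:25764237-25764296): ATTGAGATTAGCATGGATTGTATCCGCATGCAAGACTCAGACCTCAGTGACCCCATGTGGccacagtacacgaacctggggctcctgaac
The sum of the delta N forms was close in both pools, yet its division was not. Trp63-201 was at 0.24 TPM in pool 1 and 3.16 TPM in pool 2. Trp63-205 was at 3.11 TPM in pool 1 and 0.97 TPM in pool 2. Together they held 3.35 TPM in pool 1 and 4.13 TPM in pool 2. These transcripts are 4703 and 4691 bases long and differ by 12 bases at the end of exon 6 (chr16:25866200-25866211), shown in capitals with 30 bases on either side. The division between them rests on reads over this junction.
Trp63-201: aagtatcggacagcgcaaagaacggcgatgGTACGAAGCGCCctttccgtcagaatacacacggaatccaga
Trp63-205: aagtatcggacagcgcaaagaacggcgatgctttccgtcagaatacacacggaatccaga
The third most abundant delta N form, Trp63-204, was at 1.28 TPM in pool 1 and 1.18 TPM in pool 2.

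**Figure D3:**
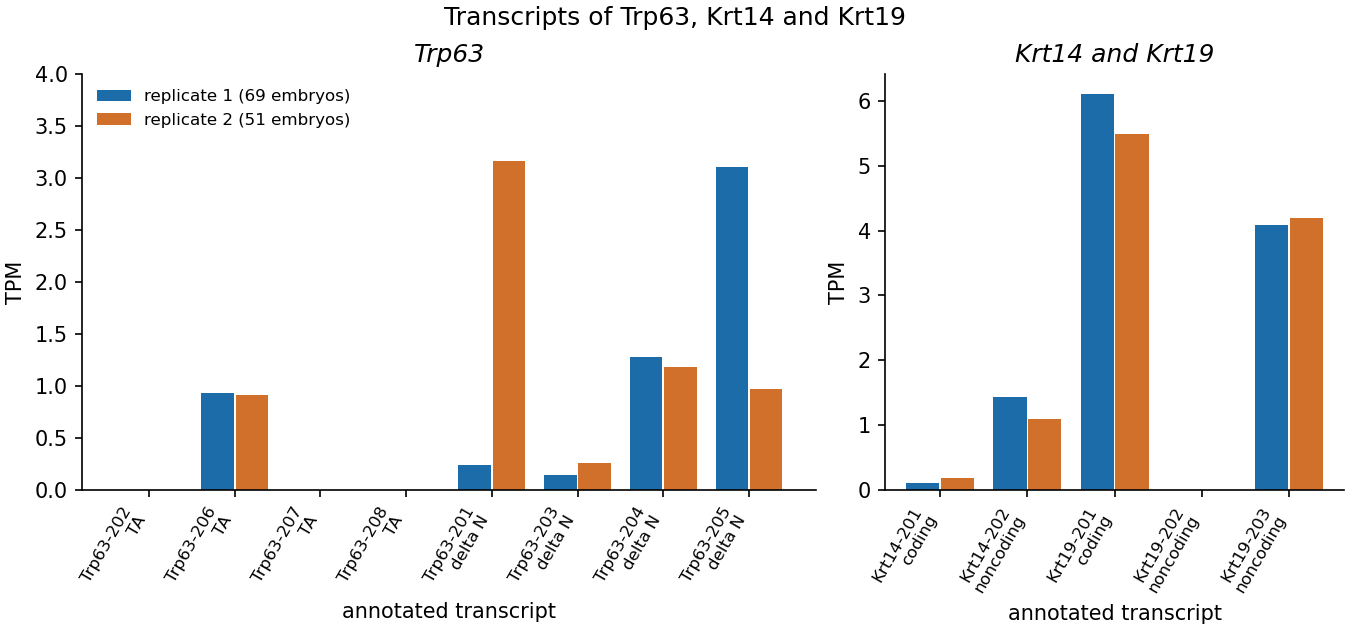
Level in TPM of each annotated transcript of Trp63 (left) and of Krt14 and Krt19 (right), with 1 bar per pool. Trp63-201 and Trp63-205 trade places between the pools while their sum is 3.35 TPM in pool 1 and 4.13 TPM in pool 2, and the Krt14 bars are highest for the noncoding Krt14-202.

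In the order of mean level, Krt8, Krt18, Epcam, Krt19, Cdh1, Trp63, Krt15, Krt14, Krt5 and Krt17, the ranges of 4 of the 9 neighbouring pairs overlapped. These were Krt8 with Krt18, Krt18 with Epcam, Krt15 with Krt14, and Krt14 with Krt5. The order was the same in both libraries except among 3 keratins: pool 1 had Krt15 above Krt5 and Krt5 above Krt14, and pool 2 had Krt14 above Krt15 and Krt15 above Krt5. The 10 genes summed to 111.23 TPM in pool 1 and 156.06 TPM in pool 2.

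**Figure D4:**
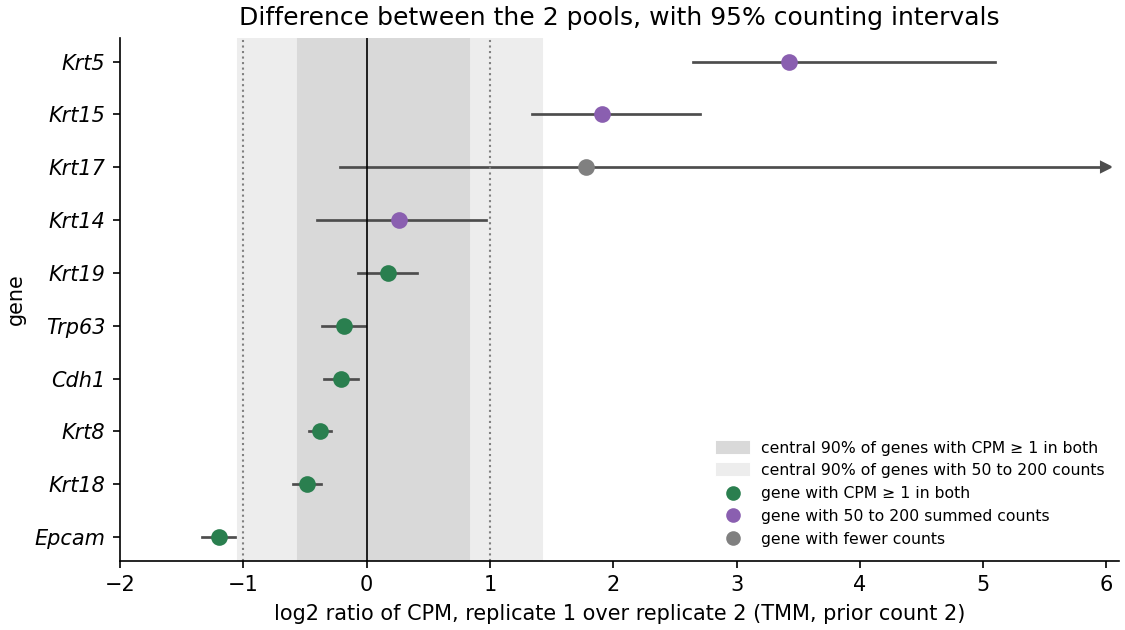
Log2 ratio of CPM, pool 1 over pool 2, of each gene with its 95% counting interval (an arrow where it has no upper bound). Bands show the central 90% of genes with a CPM of at least 1 in both pools and of genes with 50 to 200 counts, and dotted lines mark 2-fold. Krt5 at 3.42 and Krt15 at 1.91 lie to the pool 1 side, and Epcam at -1.20 lies to the pool 2 side.

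Other genes of the same epithelial programs were read from lists, and the counts are given beside the background of 3.48% and 0.862% of tested genes at least 2-fold higher in pool 1 and in pool 2. All tested genes had a median log2 ratio of -0.013. The list of Epcam partners and surface proteases had 8 of 8 genes detected. Of these, 0 were at least 2-fold higher in pool 1 and 2 in pool 2, Epcam itself and Cldn7. The median log2 ratio was -0.74, or -0.60 without Epcam. Cldn7, the claudin that binds Epcam, was at 11.79 TPM in pool 1 and 32.09 TPM in pool 2, a log2 ratio of -1.13. Spint2, an inhibitor of surface serine proteases, was at 33.24 TPM in pool 1 and 52.57 TPM in pool 2.

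Adherens and tight junction genes were detected in 18 of 18 cases. Of the 17 tested, 0 were at least 2-fold higher in pool 1 and 4 in pool 2, and the median log2 ratio was -0.43. Ap1m2, an adaptor subunit for sorting to the basolateral membrane of epithelial cells, had the largest absolute ratio of the detected genes of the list, at 3.64 TPM in pool 1 and 11.74 TPM in pool 2 (log2 ratio -1.61). The catenins that join cadherins to actin, Ctnnb1 and Ctnna1, were at 328 and 99.4 TPM in pool 1 and at 417 and 139.89 TPM in pool 2. These catenins also serve Cdh2.

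Desmosome genes, which anchor keratin filaments at cell contacts, were detected in 4 of 12 cases, and Dsg1a and Dsg3, cadherins of stratified epidermis, had no count. Perp, a desmosomal membrane protein and p63 target, was at 12.87 TPM in pool 1 and 15.68 TPM in pool 2. Of the 8 desmosome genes tested, 1 was at least 2-fold higher in pool 1 and 0 in pool 2. That 1 gene, Evpl, named after its values were seen, was below detection at 0.61 TPM in pool 1 and 0.3 TPM in pool 2. By direction alone, 1 of the 8 was higher in pool 1 and 7 in pool 2, with a median log2 ratio of -0.30. Hemidesmosome and basement membrane genes were detected in 8 of 12 cases, with Itga6, an integrin of basal cells, at 16.18 TPM in pool 1 and 25.54 TPM in pool 2. Of 9 tested, 0 were at least 2-fold higher in pool 1 and 1 in pool 2, which was Frem2.

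Epithelial transcription and splicing factors were detected in 12 of 19 cases, and of 14 tested, 1 was at least 2-fold higher in pool 1 and 2 in pool 2. Tfap2a, an AP-2 factor of ectoderm and neural crest, was at 9.54 TPM in pool 1 and 4.62 TPM in pool 2 (log2 ratio 1.11). Tfap2b, also made by neural crest and neurons, was at 64.88 TPM in pool 1 and 32.41 TPM in pool 2. Of the 14 tested, 6 were higher in pool 1 and 8 in pool 2, with a median log2 ratio of -0.21. Those at least 2-fold higher in pool 2, named after their values were seen, were the epithelial splicing regulator Esrp1 at 2.77 TPM in pool 1 and 5.7 TPM in pool 2 (log2 ratio -1.07) and the ectodermal homeobox factor Dlx3 at 2.57 TPM in pool 1 and 5.53 TPM in pool 2 (log2 ratio -1.03). Simple epithelial keratins were detected in 4 of 6 cases, with 0 of 4 tested at least 2-fold apart. These 4 were Krt7 and the members Krt8, Krt18 and Krt19. Below detection, Krt20 was higher in pool 1 (64 and 13 counts, log2 ratio 2.05) and Krt23 in pool 2 (0 and 7 counts). Basal and stratified keratins were detected in 1 of 7 cases, Krt14, and summed to 5.83 TPM in pool 1 and 2.07 TPM in pool 2. The sums are those of Krt5, Krt14, Krt15 and Krt17, apart from Krt6a at 0.04 TPM in each pool. Krt6b and Krt16 were at 0 counts. Suprabasal and mucosal keratins were detected in 1 of 8 cases, and Krt2, Krt4, Krt76, Krt77 and Krt78 had no count. Of 11 cornified envelope genes, the proteins of the dead outer skin layer, 1 was detected, Sbsn at 19.24 TPM in pool 1 and 12.44 TPM in pool 2. Lor (62 and 16 counts, log2 ratio 1.74) and Tgm1 (47 and 11 counts, log2 ratio 1.83) were below detection. Sbsn, Lor and Tgm1 were higher in pool 1, the direction of Krt5 and Krt15. Dmkn (9 and 1 counts), Tgm3 (2 and 0) and Sprr1b (1 and 0) had too few counts for a direction to be read. Of genes with 50 to 200 summed counts, 11.2% were at least 2-fold higher in pool 1. That share applies to Lor and Tgm1 and not to the other genes of the list. Ivl, Flg, Krtdap, Sprr1a and Lce1a1 had no count.

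Markers of other tissues that make these genes or adjoin the hindbrain were read in the same way. Otic and placode markers, 10 of 12 detected, summed to 274.79 TPM in pool 1 and 372.75 TPM in pool 2. Col2a1 made up most of each sum, at 158.54 TPM in pool 1 and 190.9 TPM in pool 2 (log2 ratio -0.20). Gbx2, used above as a hindbrain gene, is also in this list. The sums therefore do not measure otic or placode RNA alone. Of 11 tested, 2 were at least 2-fold higher in pool 1 and 5 in pool 2 (median log2 ratio -0.87). Oc90, the otoconial protein of the otic vesicle, was at 13.16 TPM in pool 1 and 45.11 TPM in pool 2, and Dlx5, a factor of placodes and the otic vesicle, at 2.74 TPM in pool 1 and 12.21 TPM in pool 2. On the other side were 2 genes of this list, named after their values were seen, and whether their RNA was otic was not tested. Pax2 was at 6.57 TPM in pool 1 and 2.68 TPM in pool 2 (log2 ratio 1.34), and Pax8 at 19.09 TPM in pool 1 and 8.69 TPM in pool 2 (log2 ratio 1.28). Of the 11 tested, 3 were higher in pool 1 (Pax2, Pax8 and Gbx2) and 8 in pool 2, the direction of Epcam, Krt8 and Krt18. The part of these tissues in those ratios was not tested.

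Choroid plexus markers (5 of 10 detected) summed to 296.68 TPM in pool 1 and 68.27 TPM in pool 2. Of 7 tested, 2 were at least 2-fold higher in pool 1 and 0 in pool 2. Ttr, the thyroxine carrier of choroid plexus, was at 249.76 TPM in pool 1 and 35.26 TPM in pool 2, and Kcne2, a potassium channel subunit, at 10.46 TPM in pool 1 and 1.14 TPM in pool 2. Ttr thus made up most of the summed level. Of the 7 tested, 4 were higher in pool 1, the direction of Krt5 and Krt15, and 3 in pool 2. These 3 were Otx2 at 11.98 TPM in pool 1 and 15.69 TPM in pool 2 (log2 ratio -0.47), Car12 (log2 ratio -0.76) and F5 (log2 ratio -0.14). Notochord and floor plate markers (6 of 8 detected, Noto without a count) summed to 40.79 TPM in pool 1 and 25.53 TPM in pool 2, and 1 of 6 tested was at least 2-fold higher in pool 1 and 0 in pool 2. The part of these lists in the Krt5 and Krt15 ratios was not tested.

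Gut and pharyngeal endoderm is another epithelium that makes Krt8, Krt18 and Epcam. Of its 10 markers 5 were detected, with Hnf4a and Cdx2 at 0 counts. The whole list summed to 21.13 TPM in pool 1 and 19.17 TPM in pool 2. Its largest parts were Sox17 (8.16 TPM in pool 1 and 7.27 in pool 2) and Foxa2 (5.11 and 5.16 TPM). Foxa2 is also in the notochord and floor plate list, so this sum does not measure endoderm RNA alone. Yolk sac and visceral endoderm markers, 2 of 10 detected and Apoa4 at 0 counts, summed to 7.27 TPM in pool 1 and 6.29 TPM in pool 2. Head mesenchyme markers were detected in 10 of 10 cases and summed to 673.51 TPM in pool 1 and 582.45 TPM in pool 2. In these 3 lists 0 of the tested genes were at least 2-fold apart.

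**Figure D5:**
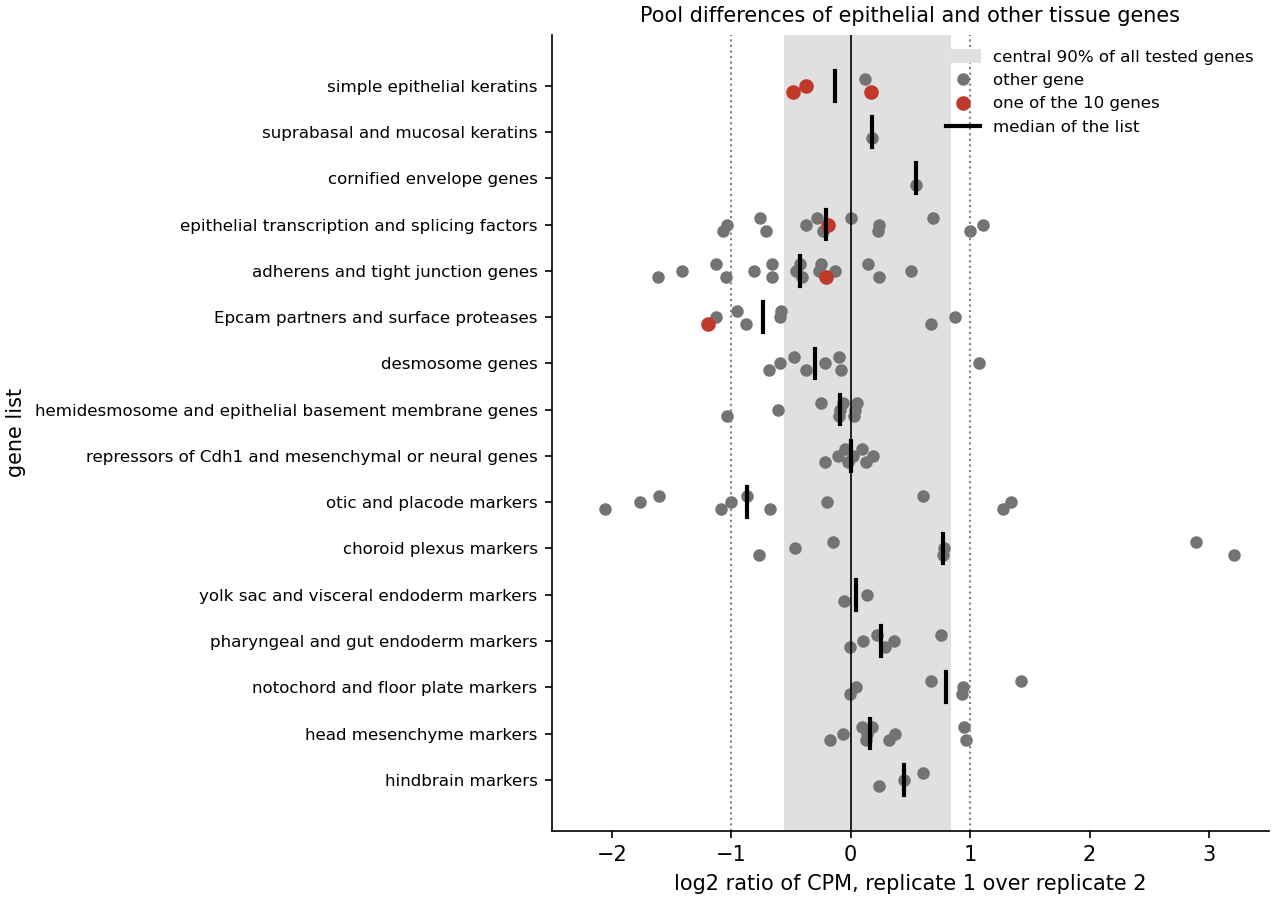
Log2 ratio of CPM, pool 1 over pool 2, of each tested gene by list, with the 10 genes in red, the list median as a bar, the central 90% of all tested genes shaded and dotted lines at 2-fold. Medians lie at -0.87 for otic and placode markers and -0.74 for Epcam partners, and at 0.77 for choroid plexus and 0.80 for notochord and floor plate markers.

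Sequence copies limit some values. Krt8-ps is 98.6% identical to Krt8 over 941 bases and Gm5200 is 90.5% identical to Krt18 over 1267 bases. Neither pseudogene is among the genes with deposited values, so reads of them had no entry of their own. Gm36026, a noncoding gene that is also not among those genes, overlaps the start of Krt8 on the opposite strand. Whether counting used strand is not given in the sources used here, so reads of the overlap cannot be assigned to a strand.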

How the data were processed

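Total RNA over 200 nucleotides was extracted with the mirVana kit per the labels' protocols. The deposited file notes name the assembly mm10 and the annotation M4. Which aligner and quantifier were used is not given in the sources used here. Per the file headers, each gene and transcript table holds an expected count, TPM, posterior mean TPM, FPKM and, as a signal the authors deposited beside them, the bounds of an interval of TPM.

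Of 69691 rows, 43346 were annotated genes, 26248 tRNAs and 97 spike-ins, and 42462 genes (98.0%) matched GENCODE M21. Spike-ins held 5.99% of counts in pool 1 (replicate 1) and 3.46% in pool 2 (replicate 2). Pool ratios used edgeR 4.0.16 (R 4.3.3) on annotated genes with TMM scaling, and tested genes had a CPM of at least 1 in both libraries. Here "tested" means compared with the 2-fold limit; no significance test was run. Intervals are exact, from the counts, at 95%. Copies were found with blastn 2.17.0. Promoter windows came from RefSeq (GRCm38.p6) and transcript sequences from GENCODE M21.

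All 10 genes were named, with every other keratin detected in both pools and, from 17 lists, genes of highest level, of largest ratio or without counts. The genes and lists were chosen with earlier results of these data known. The hindbrain list was added last. Alternatives were other scalings (DESeq2 1.42.0 size factors, total count, spike-ins), prior counts, filters, detection thresholds, units, and each library left out.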

Additional observations from a re-analysis of the deposited data

How the results depend on the processing

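Spike-in scaling moved the median log2 ratio of all tested genes by -0.80. The median over the 6 tested members of the group was -0.29 with TMM and -1.10 with spike-ins, and relative to all genes it was -0.28 in both. By fitted ratio, 4 genes were at least 2-fold apart with TMM (Krt5, Krt15, Krt17 and Epcam, the interval of Krt17 including 0) and 7 with spike-ins, which added Krt8 (-1.18), Krt18 (-1.29) and Cdh1 (-1.01), all higher in pool 2. Under that scaling, added after the values were seen for this share, 0.507% of all tested genes were at least 2-fold higher in pool 1 and 26% in pool 2. It was 3 with a prior count of 5, without Krt17, whose fitted ratio depends on the prior count. The share of all genes at least 2-fold higher in pool 1 was 11.2% at summed counts of 50 to 200 and 7.22% with any count, and in pool 2 it was 5.55% and 6.03%. The type II over type I ratio, 0.871 over both pools, was 1.01 with all keratins and 0.974 with protein-coding transcripts only, a setting added after the values were seen. The delta N share of Trp63, 84.8% of TPM, was 92.7% of expected counts and 82.7% of posterior mean TPM. With each library left out, the median level ranged from 6.44 to 7.65 TPM, the number detected from 7 to 9, the type ratio from 0.857 to 0.884 and the delta N share from 83.7 to 86.0%. Pool ratios cannot be recomputed without a library. Of the settings for single genes, 48 levels moved by less than the pool spread and 2 by more. Many of the 48 could not have moved further. Leaving out a library shifts a mean of 2 pools by less than their SD, and rescaled FPKM equals TPM by definition. That count is therefore no measure of robustness. Of the ratios, 51 moved by less than their interval and 8 by more, all 8 with spike-ins. With spike-ins the ratios of Krt19 and Krt14, near 0 with TMM, became -0.63 and -0.50. No paired analysis was possible because the labels give 1 group. Depth limits Krt5, Krt14, Krt15 and Krt17, whose counts are low.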
